A study of Mus musculus with 9 samples.

Results

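The light chain genes of mouse immunoglobulin described here are the kappa constant gene Igkc, the lambda constant genes Iglc1, Iglc2 and Iglc3, and the lambda variable genes Iglv1, Iglv2 and Iglv3. They were taken by gene name, with no measured value in the rule, and are 7 of the 55322 genes in the expression table. RNA was sequenced from CD11b+ B cells and CD11b- B cells of the bone marrow (BM) and from peritoneal macrophages (PMs), with 3 libraries in each group. All mice were wild type. Both B cell groups were sorted 48 h after an injection of 5 mg/kg LPS (lipopolysaccharide, the endotoxin of Gram-negative bacteria) into the peritoneal cavity, from marrow depleted of cells bearing T cell, NK cell, granulocyte or erythroid markers, and the PMs (CD11b+F4/80+) came from naive mice without treatment, so that tissue, cell type and treatment all differ between PMs and B cells and cannot be told apart. Levels are given as FPKM, the number of reads on a gene divided by its exon length and by the reads on all genes.

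An antibody or B cell receptor is built from heavy chains paired with light chains, and each light chain is either kappa or lambda. A light chain gene is assembled during B cell development, when a variable segment is joined to a joining segment, and the joined exon is then spliced to the constant exon of its class. Kappa is normally rearranged first and is the more used class in mice, and the mouse lambda locus holds only a few variable genes. In that locus Iglv2 and Iglv3 lie upstream of the Iglc2 cluster, and Iglv1 lies upstream of Iglc3 and Iglc1, each variable gene being joined mostly to the cluster downstream of it.

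In GENCODE M21 on GRCm38, Igkc is on the plus strand at chr6:70726435-70726966. The 6 lambda genes are on the minus strand of chromosome 16. In the order of transcription they are Iglv2 (19260401-19260859), Iglv3 (19241207-19241690), Iglc2 (19198396-19200351), Iglv1 (19085017-19085500), Iglc3 (19065230-19065681) and Iglc1 (19061618-19062071), a span of about 199 kb. Several of these genes are copies of each other, which bears on how well reads can be assigned. The coding bases of Iglc2 and Iglc3 were 96.5% identical, with 11 differences over 314 bases, and those of Iglv1 and Iglv2 were 96.9% identical, with 11 differences over 351 bases. Iglc1 stood further apart, with 74.8% identity to Iglc2, and Iglv3 shared 62.4% of its bases with Iglv1.

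The first 150 coding bases of the 3 lambda constant exons that align without a gap are shown because they carry the differences by which a read is placed on Iglc1, Iglc2 or Iglc3. They are read 5′ to 3′ on the minus strand, from chr16:19061922-19062071, chr16:19198703-19198852 and chr16:19065532-19065681 in the order printed, and capitals mark the 36 positions at which the 3 genes are not all alike.
Iglc1: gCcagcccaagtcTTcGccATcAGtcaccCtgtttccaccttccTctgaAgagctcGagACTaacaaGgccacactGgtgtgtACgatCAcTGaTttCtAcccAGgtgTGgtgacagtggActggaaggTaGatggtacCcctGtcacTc
Iglc2: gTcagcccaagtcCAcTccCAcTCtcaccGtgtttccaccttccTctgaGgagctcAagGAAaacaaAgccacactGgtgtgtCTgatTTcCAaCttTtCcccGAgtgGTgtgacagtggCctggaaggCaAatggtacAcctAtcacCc
Iglc3: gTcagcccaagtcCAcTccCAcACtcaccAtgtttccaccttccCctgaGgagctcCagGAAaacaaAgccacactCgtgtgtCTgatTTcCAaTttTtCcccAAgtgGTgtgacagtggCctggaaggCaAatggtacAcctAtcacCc
Within this stretch Iglc2 and Iglc3 differed at 7 positions, against 34 for Iglc1 and Iglc2. The same is shown for Iglv1 (chr16:19085172-19085321) and Iglv2 (chr16:19260556-19260705), whose reads are the hardest to separate among the variable genes and where 4 capitals mark the only differences.
Iglv1: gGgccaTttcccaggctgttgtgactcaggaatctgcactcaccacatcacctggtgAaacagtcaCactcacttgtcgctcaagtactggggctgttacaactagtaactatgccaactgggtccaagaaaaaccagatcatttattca
Iglv2: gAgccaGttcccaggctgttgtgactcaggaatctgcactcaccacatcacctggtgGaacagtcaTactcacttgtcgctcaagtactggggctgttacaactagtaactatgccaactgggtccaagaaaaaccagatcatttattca
No window of 150 bases, the read length, of any of the 7 transcripts was found whole in the transcript of another gene. The longest run shared by Iglc2 and Iglc3 was 79 bases and that shared by Iglv1 and Iglv2 was 104 bases, so a read shortened by trimming to less than these lengths could fit both. The sources used here do not state how reads with several matches were counted, and the split between the members of these pairs is therefore less certain than their sums. In the annotation the authors used, 93 of the 452 exon bases of Iglc3 overlap exons of 2010309G21Rik on the opposite strand, and the counting is not stated to use strand.

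The libraries held 18014658 to 35251215 reads on genes. Immunoglobulin segments accounted for 2.73% to 3.19% of them in CD11b- B cells, for 3.06% to 5.03% in the CD11b+ group and for 0.0326% to 0.0555% in PMs. Cell type markers were checked as summed FPKM over fixed lists. All 12 B cell markers were detected in both B cell groups, with sums of 7286 to 7676 in CD11b- and 5811 to 6511 in CD11b+ B cells, against 191 to 259.5 FPKM in PMs. The 11 macrophage markers summed to 20824 to 55628 in PMs, 97.5 to 125 in CD11b- and 148 to 335 in CD11b+ B cells. Itgam, which encodes CD11b itself, had 251 to 358 FPKM in PMs, 1.31 to 1.92 in CD11b+ and 0.251 to 0.869 in CD11b- B cells. Some other lists did not overlap between the B cell groups. Neutrophil markers had sums over 12 genes of 217 to 1579 in CD11b+ and 1.81 to 3.13 in CD11b- B cells, and S100a8, S100a9 and Retnlg passed the test described below. The erythroid sum was 38.9 to 49.2 in CD11b+ and 2.01 to 25.5 in CD11b- B cells, and the B1 cell sum 29.3 to 64.3 and 7.23 to 9.77. Most of the B1 difference came from Zbtb32, with means of 36.03 FPKM in CD11b+ and 3.44 FPKM in CD11b- B cells. Spn (5.2 and 3.27), Bhlhe41 (3.02 and 1.41) and Cd5 (0.53 and 0.364) had low means in both groups. The paper describes most CD11b+ B cells as high in IgD, without CD5 and apparently distinct from B1 cells. No gene of the T cell, NK cell, erythroid, B1 cell, macrophage or precursor lists passed that test between the B cell groups. Replicate 3 of each B cell group stood apart from the other 2 through genes of B cell precursors, whose sum over 8 genes was 176 in CD11b- replicate 3 against 0.808 and 1.57 in replicates 1 and 2, and 42.8 in CD11b+ replicate 3 against 2.10 and 3.70. The differences of the 7 genes between the B cell groups are therefore also given without these libraries. The labels do not say that the libraries of a group come from separate mice, so that p-values measure the spread between these libraries, which may be technical.

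Igkc, the only kappa constant gene of the mouse, was the most abundant of the 7 genes in every library. It had 11123, 12312 and 11099.8 FPKM in CD11b- B cells. It had 14717, 13629 and 27881 FPKM in the CD11b+ group and 228, 152 and 133 FPKM in PMs. All 3 CD11b+ libraries were above all 3 CD11b- libraries, and replicate 3 lay far above the other CD11b+ libraries. The CD11b- libraries were closely alike, with a coefficient of variation of 6.02%, against 42.3% in CD11b+ B cells. The counts behind these values were 189294 to 228572 reads in CD11b-, 189781 to 522870 reads in CD11b+ B cells and 1429 to 2366 reads in PMs, so that counting error was small beside the spread between libraries.

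The lambda constant genes Iglc1, Iglc2 and Iglc3 encode the constant domains of the lambda chain and were all high in both B cell groups. Iglc2 had 2658, 2941 and 3145 FPKM in CD11b- B cells. It had 2907, 3052 and 5414 FPKM in CD11b+ B cells and 93.9, 52.2 and 45.7 FPKM in PMs. The groups of B cells overlapped, since only CD11b+ replicate 3 was above the CD11b- range. Iglc3 had 2198, 2389 and 2704 FPKM in CD11b- B cells. It had 2551, 2620.2 and 3656 FPKM in CD11b+ B cells and 77.0, 35.6 and 46.6 FPKM in PMs. Its pattern followed that of Iglc2, its near copy, and the B cell groups again overlapped. Iglc1 had 1839.9, 1889.6 and 3149 FPKM in CD11b- B cells. It had 1418, 1704 and 2218 FPKM in CD11b+ B cells and 21.8, 10.6 and 23.0 FPKM in PMs. Here the highest library was CD11b- replicate 3, and the mean of 2293 ± 742 FPKM in CD11b- B cells (SD, n = 3) was above the 1779.7 ± 406 FPKM of CD11b+ B cells (SD, n = 3), with overlapping libraries.

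The lambda variable genes, which encode the part of the chain that contacts antigen, had lower group means in FPKM than the lambda constant genes. Iglv1 had 1163, 1216 and 2452 FPKM in CD11b- B cells. It had 936, 1060.3 and 1710.3 FPKM in CD11b+ B cells and 21.7, 9.54 and 16.7 FPKM in PMs. CD11b- replicate 3 was highest, as for Iglc1 and unlike Iglc3, the constant genes to which it is mostly joined. Iglv2 had 390.1, 491 and 896 FPKM in CD11b- B cells. It had 380.1, 346 and 1277 FPKM in CD11b+ B cells and 8.34, 22.1 and 7.58 FPKM in PMs. In both B cell groups replicate 3 was the highest, and its spread was the widest of the 7 genes in CD11b+ B cells, with a coefficient of variation of 79.1%. Iglv3 had 405, 453 and 587 FPKM in CD11b- B cells. It had 339.6, 312 and 412 FPKM in CD11b+ B cells and 2.19, 4.13 and 1.30 FPKM in PMs. The CD11b+ libraries of Iglv3 lay below or at the lower edge of the CD11b- range, with 1 library overlapping it. In PMs the variable genes rested on few reads, with 10 to 46 reads for Iglv3 and 55 to 236 for Iglv2 per library.

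**Figure D1:**
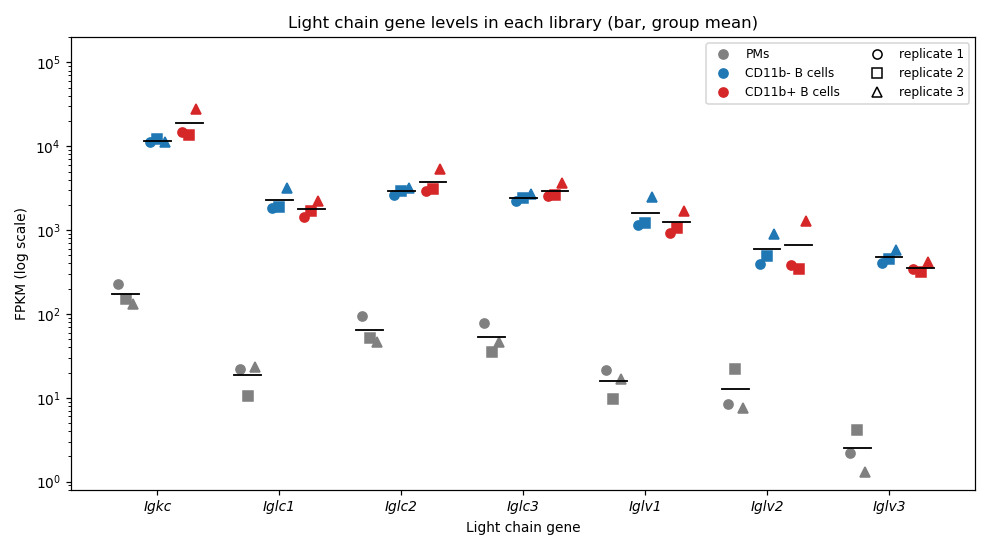
FPKM (log scale) of the 7 light chain genes in each of the 9 libraries, with circles, squares and triangles for replicates 1, 2 and 3 and a bar at the group mean. Igkc is highest in every group, all 6 B cell libraries lie above all 3 PM libraries for every gene, and replicate 3 is the highest CD11b+ library for all 7 genes.

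Per exon length, the order of the mean levels was Igkc, Iglc2, Iglc3, Iglc1, Iglv1, Iglv2 and Iglv3 in all 3 groups. Igkc was above Iglc2 without overlap in each group, with 11512 ± 693 against 2915 ± 245 FPKM in CD11b- B cells (SD, n = 3) and 18742 ± 7933 against 3791 ± 1407 FPKM in CD11b+ B cells (SD, n = 3). Iglc2 and Iglc3 had overlapping ranges in every group, although Iglc2 was the higher in all 3 libraries of each B cell group. Iglc3 and Iglc1 overlapped in CD11b- B cells, where Iglc3 was the higher in 2 of 3 libraries, but did not overlap in CD11b+ B cells or PMs. Iglc1 and Iglv1 overlapped in every group. Iglv2 and Iglv3 overlapped in both B cell groups and not in PMs.

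Between CD11b+ and CD11b- B cells, none of the 7 light chain genes passed the test. In limma on log2(FPKM + 1), with Benjamini-Hochberg adjustment over 21778 genes and a threshold of 0.05, 0.0689% of all genes were called higher in CD11b+ B cells and 0% lower. Of the 7 genes, 3 had a positive and 4 a negative difference, with a median log2 difference of -0.01 against 0.03 over all genes tested. At an unadjusted p under 0.05 limma also gave 0 of the 7, where 4.65% of all genes were higher and 3.04% lower. With edgeR and DESeq2 on whole reads 0 of the 7 passed after adjustment, where edgeR called 0.269% of all genes higher and 0% lower and DESeq2 called 1.89% higher and 0.369% lower. Igkc and Iglv3 were the 2 of the 7 genes with an unadjusted p under 0.05 in both tools, where 5.01% of all genes were higher and 4.31% lower in edgeR and 6.42% higher and 3.91% lower in DESeq2. Igkc had the largest difference, 0.63 on the log2 scale (SE 0.57, adjusted p = 0.727 in limma). It was the only one of the 7 genes whose libraries did not overlap, and 8.63% of all genes were higher and 6.32% lower without overlap. The size of the difference depended on replicate 3, since it was 0.30 without CD11b+ replicate 3 and 0.28 without replicate 3 of both groups, still without overlap. As a share of all reads on genes, Igkc took 0.997% in CD11b+ and 0.612% in CD11b- B cells on average, and 0.754% and 0.623% without replicate 3 of both groups. The exact permutation test of the Igkc means gave p = 0.1, the smallest value that 3 against 3 libraries allow.

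Among the lambda genes the differences went both ways. Iglc2 (0.32, SE 0.35) and Iglc3 (0.26, SE 0.29) were positive on the log2 scale, with limma adjusted p of 0.747 and 0.756. Iglc1 and Iglv1 were both at -0.34 (SE 0.32 and 0.37), with limma adjusted p of 0.727 and 0.744. Iglv3 was at -0.43 (SE 0.20, adjusted p = 0.674 in limma), and Iglv2 at -0.01 (SE 0.52, adjusted p = 0.997 in limma). These values do not show that the groups were alike, since an interval of 2 SE on either side ran from -0.51 to 1.76 for Igkc, from -0.99 to 0.30 for Iglc1 and from -1.05 to 1.03 for Iglv2. Iglc1, Iglc2, Iglc3 and Iglv3 kept their sign under all 20 alternative settings, but their sizes depended on replicate 3. Without CD11b+ replicate 3, Iglc2 was at 0.035 and Iglc3 at 0.094. Without CD11b- replicate 3, Iglc1 was at -0.092, Iglv3 at -0.28 and Iglv1 at 0.0043. Iglv2 changed sign under 7 settings, being at 0.33 without CD11b- replicate 3 and at -0.61 without CD11b+ replicate 3. Without replicate 3 of both groups Iglc2 and Iglc3 were at 0.09 and 0.17, and Iglc1, Iglv1, Iglv2 and Iglv3 at -0.26, -0.26, -0.27 and -0.39.

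**Figure D2:**
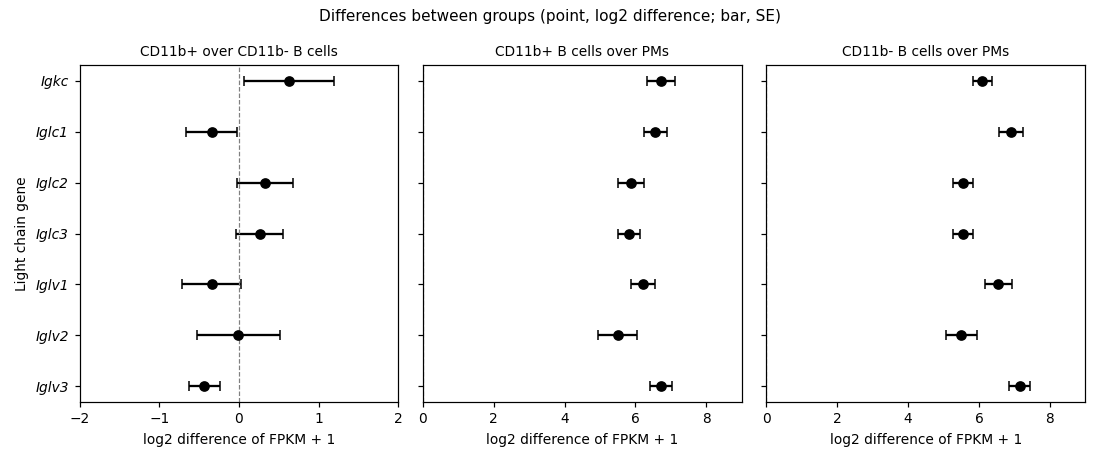
Log2 difference of FPKM + 1 for the 7 light chain genes in 3 comparisons, each point with a bar of 1 SE from limma and the dashed line at 0. Between the B cell groups the points lie from -0.43 to 0.63 on both sides of 0, and against PMs they lie between 5.49 and 7.15.

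All 7 light chain genes were higher in both B cell groups than in PMs. In CD11b+ B cells the log2 differences ran from 5.49 for Iglv2 to 6.73 for Igkc, with limma adjusted p from 3.00e-06 to 0.000237, and 21.5% of 22102 genes tested were called higher in that comparison. In CD11b- B cells they ran from 5.50 for Iglv2 to 7.15 for Iglv3, with limma adjusted p from 2.68e-06 to 7.80e-05, and 25.8% of 20985 genes were called higher. Every library of either B cell group was above every PM library for all 7 genes, which held in the same direction for 34.3% of all genes in CD11b+ and 36.1% in CD11b- B cells. The median difference over all genes was 0.25 in CD11b+ and 0.24 in CD11b- B cells, far below the members' medians of 6.20 and 6.10. That shift depended on the scaling, as median-ratio scaling brought it to 0.11 and 0.06 and lowered the share of calls that were higher from 71.0% to 51.0% and from 70.1% to 51.4%, while all 7 genes were called higher in each of the 19 alternative settings, with log2 differences of 4.89 or more. Among these, edgeR called 18.7% and DESeq2 19.6% of all genes higher in CD11b+ B cells, and 21.1% and 20.7% in CD11b- B cells. The comparisons share the PM libraries and are not independent of each other.

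In PMs the light chain genes were low but present in every library. Their PM means were 0.527% of the CD11b- mean for Iglv3 to 2.19% for Iglc2, with a median of 1.49%. The 12 B cell markers, which include the receptor signalling genes Cd79a and Cd79b, were at 0.362% to 23.9% of their CD11b- mean, with a median of 1.2%. Cd79a had 35.4, 23.9 and 21.6 FPKM in PM replicates 1, 2 and 3, and Igkc, Iglc2, Iglc3 and Iglv1 were also highest in PM replicate 1. Iglc1 was highest in PM replicate 3, and Iglv2 and Iglv3 in PM replicate 2. Iglv2 had 236 reads there against 55 and 56 in the others and made up 61.7% of lambda variable FPKM in that library against 25.9% and 29.6%. In such bulk libraries fewer cells of a type and less RNA per cell cannot be told apart, and the part of B cells in the PM values was not tested.

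The balance of kappa and lambda RNA was compared as the share of Iglc1, Iglc2 and Iglc3 in the summed FPKM of the 4 constant genes. This is a share of RNA on constant genes and does not count the cells that use each class. The lambda share was 37.6%, 37.0% and 44.8% in CD11b- B cells. It was 31.8%, 35.1% and 28.8% in CD11b+ B cells. It was 45.8%, 39.3% and 46.4% in PMs. Every CD11b+ library was below every CD11b- library, with means of 31.9% ± 3.15 and 39.8% ± 4.34 (SD, n = 3 each), a difference of -7.85 percentage points. The difference was -3.79 points without replicate 3 of both groups, still without overlap. CD11b+ B cells were also below PMs without overlap, by -11.9 points, while CD11b- B cells and PMs overlapped. The exact permutation test gave p = 0.1 for both differences without overlap. Over the 69 tests of such values (23 values in 3 group pairs) the adjusted value was 0.209, and no test of 3 against 3 libraries could go below 0.1.

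The sum of the lambda constant genes, unlike Igkc, overlapped between the B cell groups. This summed lambda constant FPKM was 6696, 7219 and 8998 in CD11b- B cells and 6875, 7376 and 11288 in CD11b+ B cells, with overlapping libraries (exact permutation p = 0.6). A share counted on variable genes, from reads of Iglv1, Iglv2 and Iglv3 and of 160 kappa variable genes, was lower than that of the constant genes in every library. It was 17.8%, 18.0% and 31.5% in CD11b- and 12.7%, 14.8% and 17.3% in CD11b+ B cells, again without overlap (exact permutation p = 0.1). The difference of -7.50 points was -2.98 without CD11b- replicate 3 and -4.18 without replicate 3 of both groups. In PMs it was 22.0%, 30.0% and 25.9%.

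**Figure D3:**
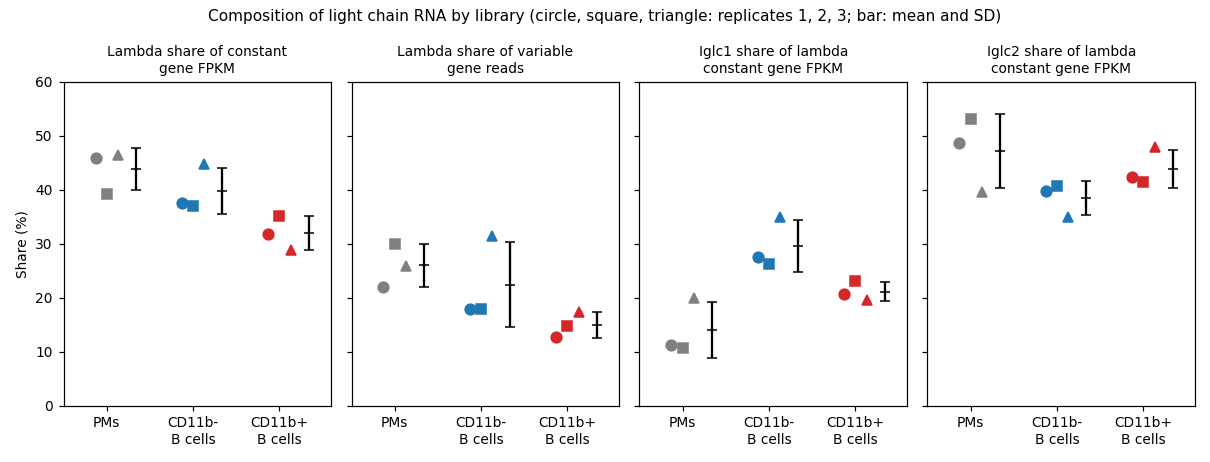
Shares in percent per library (circle, square and triangle for replicates 1, 2 and 3) with the mean and SD beside them, for the lambda share of constant gene FPKM, the lambda share of variable gene reads, and the Iglc1 and Iglc2 shares of lambda constant gene FPKM. The CD11b+ libraries lie below all CD11b- libraries in the first 3 panels and above them in the fourth.

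Within lambda, the CD11b+ libraries held relatively less Iglc1 and more Iglc2. Iglc1 made up 27.5%, 26.2% and 35.0% of lambda constant FPKM in CD11b- B cells and 20.6%, 23.1% and 19.6% in CD11b+ B cells, a difference of -8.43 percentage points without overlap. Iglc2 made up 39.7%, 40.7% and 35.0% in CD11b- and 42.3%, 41.4% and 48.0% in CD11b+ B cells, a difference of 5.41 points without overlap. Both had an exact permutation p of 0.1 (adjusted 0.209 over the 69 tests). Without replicate 3 of both groups the differences were -4.97 and 1.61 points, and that of Iglc2 was 3.37 points without CD11b+ replicate 3. The 2 shares are parts of 1 sum and are not independent. Iglc3 overlapped between the groups (32.0% ± 1.69 and 35.0% ± 2.40, SD, n = 3 each), and so did the shares of Iglv1, Iglv2 and Iglv3 among the variable genes. Iglv1 was the largest of these, with 59.3% ± 3.0 in CD11b- and 56.2% ± 5.70 in CD11b+ B cells (SD, n = 3 each).

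Variable and constant reads differed between the classes. Reads on lambda variable genes were 21.8%, 22.1% and 33.0% of the reads on lambda constant genes in CD11b- B cells and 17.7%, 17.3% and 21.7% in CD11b+ B cells. Those on kappa variable genes were 58.6%, 57.6% and 55.7% of Igkc reads in CD11b- and 55.8%, 52.6% and 41.6% in CD11b+ B cells. The lambda ratio was thus below the kappa ratio in all 6 B cell libraries. In both lambda clusters the variable reads were few beside the constant reads, as Iglv2 plus Iglv3 gave 18.3%, 19.6% and 28.7% of Iglc2 reads in CD11b- B cells and Iglv1 gave 24.9%, 24.5% and 36.2% of the reads on Iglc1 plus Iglc3. These are ratios of read numbers over exons of different length, and the variable segments counted are those of the annotation, so they do not compare levels per length.

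Set against the heavy chain, the light chain genes overlapped between the B cell groups. The ratio of Igkc to Ighm, the mu constant gene of IgM, was 1.96, 2.43 and 1.61 in CD11b- and 2.07, 2.13 and 3.01 in CD11b+ B cells (exact permutation p = 0.4). Its difference of 0.40 turned to -0.0964 without replicate 3 of both groups. All 4 constant genes together gave 3.14, 3.85 and 2.92 times the FPKM of Ighm in CD11b- and 3.04, 3.28 and 4.22 times in CD11b+ B cells (exact permutation p = 0.6), and the difference of 0.208 turned to -0.147 without CD11b+ replicate 3 and to -0.34 without replicate 3 of both groups. The lambda constant genes alone gave 1.18, 1.42 and 1.31 times the FPKM of Ighm in CD11b- and 0.967, 1.15 and 1.22 times in CD11b+ B cells (exact permutation p = 0.2). Without CD11b+ replicate 3 this lambda ratio was lower in CD11b+ B cells without overlap, with means of 1.06 and 1.30, and it was so without replicate 3 of both groups too. In PMs, at far lower levels, the ratio of all 4 constant genes to Ighm was 3.57, 3.69 and 2.94.

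All 6 lambda genes were above the mean of replicates 1 and 2 in replicate 3 of both B cell groups, while Igkc was so in CD11b+ B cells and not in CD11b- B cells. In CD11b- replicate 3, Igkc was 0.947 times that mean, while Iglc1 was at 1.69 times, Iglc2 at 1.12 times, Iglv1 at 2.06 times and Iglv2 at 2.03 times. In CD11b+ replicate 3, Igkc was at 1.97 times, Iglc1 at 1.42 times, Iglc2 at 1.82 times, Iglv1 at 1.71 times and Iglv2 at 3.52 times. Both libraries were high in genes of the surrogate light chain, which stands in for the light chain in precursors before rearrangement. Igll1, encoding lambda5, had 0.0277, 0.0132 and 53.9 FPKM in CD11b- B cells and 0.472, 1.39 and 12.7 FPKM in CD11b+ B cells. Its partners Vpreb1 and Vpreb2 followed, with 41.5 and 17.3 FPKM in CD11b- replicate 3, 12.3 and 5.91 FPKM in CD11b+ replicate 3 and at most 1.37 FPKM in the other 4 B cell libraries. Vpreb3, a chaperone-like relative of the surrogate chain, had 407, 402 and 1188 FPKM in CD11b- and 295, 335 and 574 FPKM in CD11b+ B cells. The recombinase gene Rag1, had 0.0136, 0.0911 and 14.0 FPKM in CD11b- and 0.0206, 0.0694 and 2.96 FPKM in CD11b+ B cells.

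Jchain, whose product links IgM and IgA into polymers and which is high in antibody-secreting cells, had 6.18, 17.4 and 22.7 FPKM in CD11b- and 101, 83.9 and 449 FPKM in CD11b+ B cells. The ratio of Jchain to Igkc was 0.0555%, 0.141% and 0.204% in CD11b- and 0.688%, 0.615% and 1.61% in CD11b+ B cells, without overlap. The 11 plasma cell markers summed to 354, 333 and 413 FPKM in CD11b- and 555, 496 and 850.4 FPKM in CD11b+ B cells, and none of them passed the test. Jchain is itself one of the 11, and the sum of the other 10 was 347, 316 and 391 FPKM in CD11b- and 454, 412 and 402 FPKM in CD11b+ B cells. Among the CD11b+ libraries replicate 3 was thus highest in Igkc and Jchain and lowest in the sum of the other 10, although 6 of these 10 genes (Sdc1, Tnfrsf17, Derl3, Fkbp11, Slamf7 and Xbp1, named after their values were seen) were highest in it. Tnfrsf13b, the most abundant of them, had 226, 205 and 144 FPKM in CD11b+ B cells. The neutrophil sum did not follow Igkc in CD11b+ B cells, as it was 655, 1579 and 217 FPKM in replicates 1, 2 and 3. The part of precursors, plasma cells or neutrophils in the light chain values was not tested.

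**Figure D4:**
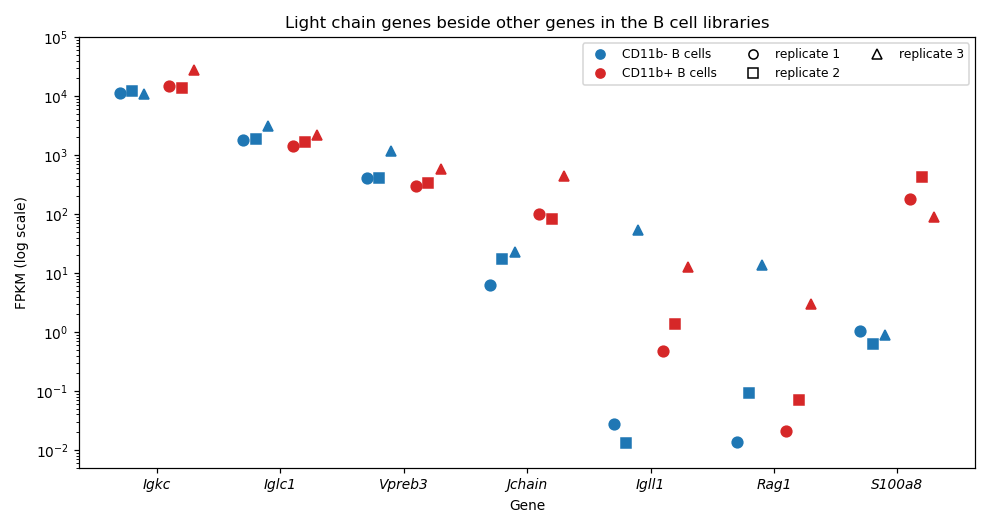
FPKM (log scale) of Igkc and Iglc1 in the 6 B cell libraries, with replicates as circles, squares and triangles. Beside them are Vpreb3, the precursor genes Igll1 and Rag1, the antibody joining chain gene Jchain and the neutrophil gene S100a8. Replicate 3 of both groups is high for Vpreb3, Igll1 and Rag1, and the CD11b+ libraries are all above the CD11b- libraries for Igkc, Jchain and S100a8.

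Other segments of the light chain loci were read as context. The joining segments are 38 to 43 bases long, shorter than a read of 150 bases, so a full-length read on one extends beyond it. The sources used here do not state how reads overlapping several genes were counted, so the levels of joining segments are uncertain. Of 6 further lambda segments, 5 could be tested and none was called between the B cell groups, with a median log2 difference of -0.04. Iglj1, the joining segment before Iglc1, had 814.5, 802 and 1200.2 FPKM in CD11b- and 569, 619 and 741 FPKM in CD11b+ B cells, without overlap (log2 difference -0.53, SE 0.23, limma adjusted p = 0.654). This matched the direction of Iglc1. Iglj3 overlapped between the groups (338 ± 60.1 and 378 ± 131 FPKM, SD, n = 3 each), and so did Iglj4, which had at most 8.87 FPKM. Iglj3p was lower in CD11b+ B cells without overlap (382 ± 19.0 and 288 ± 42.2 FPKM, SD, n = 3 each, limma adjusted p = 0.643). Iglc4, a constant segment downstream of Iglc2 that is held to be non-functional, had 19.1 ± 7.38 FPKM in CD11b- and 23.4 ± 6.24 FPKM in CD11b+ B cells (SD, n = 3 each), far below Iglc2. Iglj2, the joining segment of Iglc2, was listed at 0 in all 9 libraries, and in the table its 38 bases lie wholly within an exon of Iglc2.

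On the kappa side, all 5 joining segments had a lower mean in CD11b+ B cells while Igkc had a higher one. With segments shorter than a read and the counting not stated, these means cannot be set directly against that of Igkc. None of the 5 passed the test, and the median log2 difference was -0.47. Igkj2 had 413, 412 and 421 FPKM in CD11b- and 339, 319 and 249 FPKM in CD11b+ B cells, without overlap (limma adjusted p = 0.595). Igkj5 was also without overlap, with 849 ± 36.4 and 656 ± 111 FPKM (SD, n = 3 each, limma adjusted p = 0.684). Igkj1 overlapped (log2 difference -0.14). Igkj3 had 559, 449 and 503 FPKM in CD11b- and 480.2, 420.3 and 197 FPKM in CD11b+ B cells. Igkj4 had 822, 588 and 751 FPKM in CD11b- and 568, 606 and 319 FPKM in CD11b+ B cells. Both overlapped, and CD11b+ replicate 3 was at 0.438 times the mean of replicates 1 and 2 for Igkj3 and at 0.543 times for Igkj4. Of 160 kappa variable genes, 134 could be tested and none was called in either direction, with 60 above 0 and a median log2 difference of -0.07. Without overlap, 8 of the 160 were higher and 20 lower in CD11b+ B cells, which is 5.0% and 12.5%, beside 8.63% and 6.32% of all genes tested. The first pair of shares counts all 160 genes, including those too low to be tested, so the bases are not alike. In total, kappa variable FPKM summed to 9411, 10229 and 8896 in CD11b- and 11829.5, 10343 and 16548 in CD11b+ B cells.

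**Figure D5:**
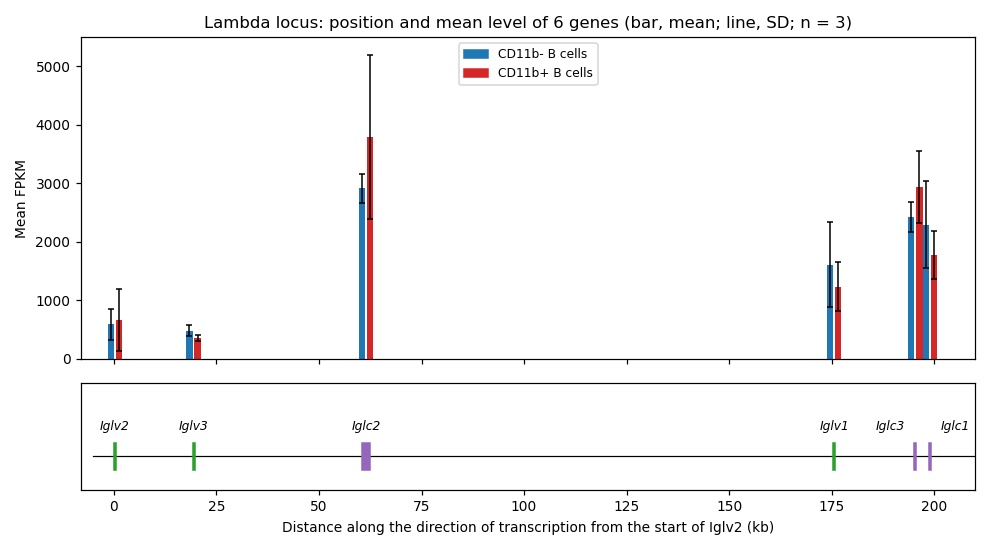
Position of the 6 lambda genes in kb along the direction of transcription from the start of Iglv2 (lower panel, variable genes in green and constant genes in purple) and their mean FPKM with SD in the 2 B cell groups (upper panel, n = 3 each). Iglc2 has the highest mean, and the CD11b+ mean is above the CD11b- mean for Iglv2, Iglc2 and Iglc3 and below it for Iglv3, Iglv1 and Iglc1.

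Of the 9 genes of a list of heavy chain constant genes with Jchain, 8 had a positive log2 difference in CD11b+ B cells and 1 was called higher, with a median log2 difference of 2.0 against 0.03 over all genes. The called gene was Ighg2c, a constant gene of switched IgG, with 0.0226, 1.21 and 0.118 FPKM in CD11b- and 14.9, 29.6 and 37.1 FPKM in CD11b+ B cells (log2 difference 4.28, SE 0.41, limma adjusted p = 0.0184). Ighm had 5667, 5073 and 6887 FPKM in CD11b- and 7108, 6409 and 9278 FPKM in CD11b+ B cells, which overlapped (log2 difference 0.36, SE 0.40, limma adjusted p = 0.750). Ighd (997 ± 102 and 984 ± 359 FPKM, SD, n = 3 each) overlapped as well, and Ighg2b had 1.66, 0.91 and 22.9 FPKM in CD11b- and 38.7, 15.0 and 56.7 FPKM in CD11b+ B cells. The IgG genes are close copies of each other, so that the split of reads between them is uncertain. Cd79a and Cd79b, which carry the signal of the assembled receptor, had lower means in CD11b+ B cells without overlap, with log2 differences of -0.25 and -0.42 and limma adjusted p of 0.729 and 0.688.

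None of the 4 surrogate light chain genes and none of 11 recombination genes passed the test between the B cell groups. Hmgb2, a chromatin protein that assists the recombinase, had 91.6, 70.8 and 50.2 FPKM in CD11b- and 172, 186 and 103 FPKM in CD11b+ B cells (log2 difference 1.10, SE 0.28, limma adjusted p = 0.384), without overlap. Hmgb1, its relative, and Xrcc5 and Xrcc6, the Ku subunits of end joining, overlapped between the groups. The 16 transcription factors that act on light chain loci gave no call either, with a median log2 difference of -0.24. Spib, an ETS factor that binds the light chain enhancers, had 747.5, 684 and 897 FPKM in CD11b- and 484, 532 and 437.5 FPKM in CD11b+ B cells, without overlap (log2 difference -0.67, SE 0.19, limma adjusted p = 0.441). Pou2af1, the coactivator of octamer-binding factors at immunoglobulin promoters, overlapped with 212 ± 29.7 and 180.2 ± 27.2 FPKM (SD, n = 3 each), as did Id3, an inhibitor of E proteins. Irf8, which acts with PU.1 at the kappa and lambda enhancers, was lower without overlap (log2 difference -0.30, limma adjusted p = 0.643).

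Of 14 genes for antibody folding in the endoplasmic reticulum, 1 passed the test. It was Sdf2l1, a co-chaperone, with 46.3, 43.4 and 45.4 FPKM in CD11b- and 117, 97.8 and 105.5 FPKM in CD11b+ B cells (log2 difference 1.22, SE 0.12, limma adjusted p = 0.0275). Hspa5, the chaperone BiP that holds unassembled chains, had 199, 168 and 170 FPKM in CD11b- and 252, 237 and 139 FPKM in CD11b+ B cells, with overlap. CD11b+ replicate 3, the library with the most Igkc, had the lowest Hspa5 of the 6 B cell libraries. Hsp90b1, the chaperone GRP94, was higher in CD11b+ B cells without overlap (log2 difference 0.70, SE 0.16, limma adjusted p = 0.311), and the disulfide isomerase genes Pdia3 and Pdia4 overlapped.

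Most other genes of the light chain loci and of the assembled receptor were also higher in B cells than in PMs. Of the further lambda segments 4 of 5 were called higher in both B cell groups, and of the kappa joining segments 5 of 5. Of the kappa variable genes 108 of 129 tested were called higher in CD11b+ and 114 of 130 in CD11b- B cells. Cd79a and Cd79b were called higher in both, as were 12 of 12 B cell markers. Of the surrogate light chain genes only Vpreb3 was called, higher in both groups. The recombination list had 5 of 11 genes called higher in each group, and the transcription factors had 14 and 15 of 16 called higher in CD11b+ and CD11b- B cells, with Spi1, encoding PU.1, called lower in both. The list of 14 folding genes held 2 calls up and 3 down for CD11b+ B cells, and 2 up and 8 down for CD11b- B cells. Of all genes 8.78% were called lower in CD11b+ and 11% in CD11b- B cells against PMs, and median-ratio scaling raised these lower calls from 1940 to 2660 and from 2306 to 3153 genes. These comparisons share the PM libraries.

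The likeness of the light chain genes to each other and to other genes was described over the 6 B cell libraries, as Pearson r of log2(FPKM + 1). With 6 points that share 2 libraries standing apart, these values only describe this set. Iglc2 and Iglc3 went together (r = 0.972), as did Iglc1 and Iglv1 (r = 0.985). Pairs across and within the clusters ran widely, with r = 0.882 for Iglc1 and Iglv3, 0.824 for Iglc2 and Iglv2, 0.462 for Iglc3 and Iglv1 and 0.0755 for Iglc2 and Iglv3. Igkc followed Iglc2 (r = 0.935) and Iglc3 (r = 0.903) but not Iglc1 (r = -0.0399) or Iglv3 (r = -0.237). Compared with 11719 genes outside the immunoglobulin segments, each averaging 1 FPKM or more, those most like Igkc were Srp9, encoding a subunit of the signal recognition particle (r = 0.999), Mbd2, Rps18, Rpl21 and Gm37660. For Iglc1 they were 9930104L06Rik, Polm, Ip6k1, Trim11 and Fbxl12, of which Polm encodes a DNA polymerase used in end joining (r = 0.994). For Iglc2 they were Adipor2, Rpl32, Gm4149, Ndufs5 and Rps7, and for Iglc3 they were Atp5l, Reps1, Phf11c, Tmem86b and AI413582. Over all 9 libraries, where the contrast of B cells and PMs sets the values, the nearest genes included Pax5, the B lineage factor, for Igkc (r = 0.996), Iglc2 (r = 0.999) and Iglc3 (r = 0.999), and Blnk, an adaptor of receptor signalling, for Iglc1 (r = 0.998).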

How the data were processed

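Total RNA of 9 libraries was made into full-length cDNA libraries with amplification and sequenced as read pairs. Per the submitters' processing notes, the authors used Trim Galore 0.4.4, Trimmomatic 0.36 and cutadapt 1.16 for trimming, STAR 2.7.2b for mapping, featureCounts 1.6.1 for counting on genes and DESeq2 1.20.0. The methods name GRCm38, and the notes name GRCm39 as well. The deposited FPKM values are these counts per exon length and per reads on genes. A second deposited table holds a normalized signal, in which the counts of a subset of genes are divided by each library's size factor, and was used only to check read counts. Its columns of gene clusters were not used.

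FPKM times exon length gave whole reads (within 0.05 of a read) for 100% of values above 0, and the second table gave the same reads. Groups were compared with limma 3.58.1 in R 4.3.3 (two-sided, variance trend in eBayes). The scale was log2(FPKM + 1), which understates changes of low genes. The 6 libraries of a comparison entered, genes averaging under 0.05 FPKM were left out, and p-values were adjusted by Benjamini-Hochberg over the genes tested. Single values were compared by exact two-sided permutation tests (SciPy 1.17.1). The fits were tested on simulated data. Sequences are from GENCODE M21 transcripts, which hold 52046 of the 55322 gene identifiers, aligned with Biopython 1.88. The table's own positions differ from those of M21, and the sources used here do not name the annotation behind them.

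The rule for the members used gene names only, but the members and lists were chosen with earlier results of these data known. Genes named are the 7 members, the 5 genes most like each of 4 members, all genes of lists of 5 or fewer, and in longer lists the 4 most abundant and those past the threshold. Any further gene was named with its values already known. Libraries were grouped by their labels, and replicates differed by far more than sampling noise (lowest chi-square per degree of freedom 28.9). Alternatives were other pseudocounts, filters and scalings, fits over all libraries or with a replicate block, edgeR 4.0.16 (quasi-likelihood test) and DESeq2 1.42.0 on whole reads, and leaving out libraries. Leaving out replicate 3 of both B cell groups, the plasma cell sum without Jchain, blocking the composition values, and the ratios of variable to constant reads, of lambda or all constant genes to Ighm and of Jchain to Igkc were chosen after seeing the data.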

Additional observations from a re-analysis of the deposited data

How the results depend on the processing

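Quantile normalization put 50.4% (CD11b+) and 52.7% (CD11b-) of the calls against PMs on the higher side, against 71.0% and 70.1%. Against PMs all 7 light chain genes were called higher in each of 19 alternative settings, and between the B cell groups none was called in any of 20. The count of all genes called between the B cell groups was 15 and moved to 37 and 25 with pseudocounts of 0.1 and 0.01, 2 without a filter, 31 with a minimum mean FPKM of 1, 35 with all 9 libraries in the fit, 9 under quantile normalization, 42 with edgeR on whole reads, 392 with DESeq2 on whole reads, and 29 without replicate 3 of both B cell groups. Leaving out single libraries gave 3 to 40, the lowest without CD11b- replicate 1 and the highest without CD11b+ replicate 3. The lost or gained calls were of other genes, and the cause was not tested. Iglv2, at -0.01 on the log2 scale, was positive without immunoglobulin reads (0.0033), with edgeR (0.17), with DESeq2 (0.16) and in the fit with a replicate block by the numbers in the descriptions (0.24), and ran from -0.61 to 0.33 with single libraries left out. Iglv1 ran from -0.60 to 0.0043, the latter without CD11b- replicate 3. The Iglv1 share turned from -3.16 to 1.26 percentage points without replicate 3 of both B cell groups, and its leave-one-out range was -10.2 to 10.2 for CD11b+ B cells against PMs and -7.00 to 13.3 for CD11b- B cells against PMs, reversed only without PM replicate 2. Between the B cell groups the Iglv2 share ran from -0.261 to 8.45 and the Iglv3 share from -3.89 to 0.487 points, reversed without CD11b+ replicate 3. The ratio of Igkc to Ighm turned from 0.40 to -0.0964 without replicate 3 of both B cell groups, and that of all 4 constant genes from 0.208 to 0.0151 without CD11b- replicate 3, -0.147 without CD11b+ replicate 3 and -0.34 without both. Under quantile normalization the Igkc difference is 0 because the gene holds the top rank in all 6 B cell libraries. Titles number the libraries 1 to 3 in every group, but nothing says that a number pairs animals, so the block is an alternative only. The correlations of deviations for CD11b+ and CD11b- libraries of the same title number were 0.284, -0.0193 and 0.206. Both positive values belong to libraries whose description numbers also match (1 and 1, 5 and 5). For title number 2 the description numbers differ, being 2 in CD11b+ and 3 in CD11b-. CD11b+ replicate 2 correlated best with CD11b- replicate 1. The main fit and the permutation tests treat all libraries as unpaired, and whether some are matched was not tested. The replicate block by title number gave 16 called genes between the B cell groups, 5854 against 6700 for CD11b+ B cells and 7125 against 7710 for CD11b- B cells against PMs, and changed no call of a light chain gene. The block by description number, possible for 4 libraries, gave 127 called genes and none of the 7. In the B cell libraries each of the 7 genes had at least 3115 reads, while some other genes named had few, as Iglj4 with 0 to 13 reads. In PMs 10 to 46 reads on Iglv3 per library limit its shares.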
